A study of Mus musculus with 5 samples.

Results

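MG5 is a mouse microglial cell line, labelled here as wild-type genotype. It was kept in a mixture of fresh medium and medium conditioned by astrocyte-like A1 cells. The comparison described below set 1 MG5 library treated with 10 µM 6OHA for 6 h against 1 untreated MG5 library, 2 of the 5 RNA-seq libraries at hand. 6OHA is the code name of a synthetic agonist of the retinoid X receptor (RXR), and the study asked how its activity compares with that of bexarotene (BEX), an established RXR agonist. The remaining 3 libraries came from MG5 cells given 10 µM BEX for 6 h. They supplied the estimate of spread, since neither side of the comparison has a replicate here. The study describes 3 samples in each group, and the further 6OHA and untreated samples it describes are not analysed here. No label gives a time point or a vehicle for the untreated cells, so effects of vehicle or handling cannot be told apart from effects of 6OHA. Nothing says that the libraries came from separate cultures. P-values therefore rest only on the spread between the BEX samples, which was assumed to hold for the lone 6OHA and untreated libraries.

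RXR is a nuclear receptor that binds DNA as a partner of other receptors. With the liver X receptors (LXR) it acts on genes of cholesterol export and fatty acid synthesis, with the peroxisome proliferator-activated receptors (PPAR) on genes of lipid storage and fatty acid oxidation, and with the retinoic acid receptors (RAR) on retinoid genes. Microglia are the resident macrophages of the brain, and they clear lipid-rich debris, secrete cytokines and present antigen.

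The comparison used every gene that averaged 20 or more counts over the 5 libraries, which kept 13316 of the 45777 genes in the table and 99.91% of all counts. Levels are given as CPM, that is counts divided by library size with TMM factors. Differences are log2 fold changes of 6OHA over untreated with the standard error (SE) of the edgeR fit. A gene was called when its Benjamini-Hochberg adjusted p over all 13316 genes was under 0.05. The 6OHA library held 34738597 counts and the untreated library 35441084, within the range of all 5 (33823181 to 40545305). The defining microglial markers were present: all 14, among them Csf1r and Spi1, stood above 1 CPM in both libraries. Of 9 astrocyte markers 2 did so, of 6 neuronal markers 2, of 7 oligodendrocyte markers 2, and of 9 fibroblast and endothelial markers 3. Summed astrocyte markers stood at 24.1 CPM untreated, 15.8 CPM with 6OHA and 17.9 to 20.5 CPM with BEX. The 2 markers above 1 CPM were Slc1a2, a glutamate transporter gene (7.09 CPM untreated, 3.04 CPM with 6OHA, 2.98, 4.11 and 2.90 CPM with BEX), and Aldh1l1 (16.4, 12.3 and 15.5, 15.8 and 14.7 CPM), while Aqp4, Gjb6 and Sox9 were at 0 in every library. Other types had larger sums, each mostly from 1 gene. Oligodendrocyte markers summed to 86.7 CPM untreated and 101 CPM with 6OHA, mostly Mbp (76.8 and 95.4 CPM). Fibroblast and endothelial markers summed to 240.7 and 216 CPM, mostly Kdr (229.6 and 206.7 CPM). In such bulk samples fewer cells of a type and less RNA per cell cannot be told apart.

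6OHA raised 1291 genes (9.7%) and lowered 1264 (9.49%) relative to the untreated library, 2555 in all (19.2%). Most of these changes were small. The median called rise was 1.28-fold and the median called fall 1.31-fold, and 171 called genes (1.28%) changed at least 2-fold, 97 of them upward and 74 downward. Calls followed the depth behind a gene: with genes split by mean level into 3 equal classes, 5.54% were called in the lowest class, 16.8% in the middle one and 35.2% in the highest. Counts in the gene lists below are to be read beside these shares and beside 9.7% higher and 9.49% lower over all tested genes. Higher calls made up 50.5% of all calls. That share was 61.3% on log2(TPM + 1), 61.1% on log2(TPM + 0.1) and 72.5% when the dispersion taken from the BEX libraries was multiplied by 4. This larger spread came with another test, a likelihood ratio test that takes the dispersion as known. Adjusted p could therefore also become smaller, as for Arg1 and Vegfa, and a call kept there did not pass a stricter form of the main test. With this larger spread 222 genes were higher and 84 lower, and each gene list below that had a call had fewer calls. Of the 321 called genes that the naming rule selected, 114 were called under each of the 15 alternatives that gave them an adjusted p, and 78 more lost their call under the larger spread alone.

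**Figure D1:**
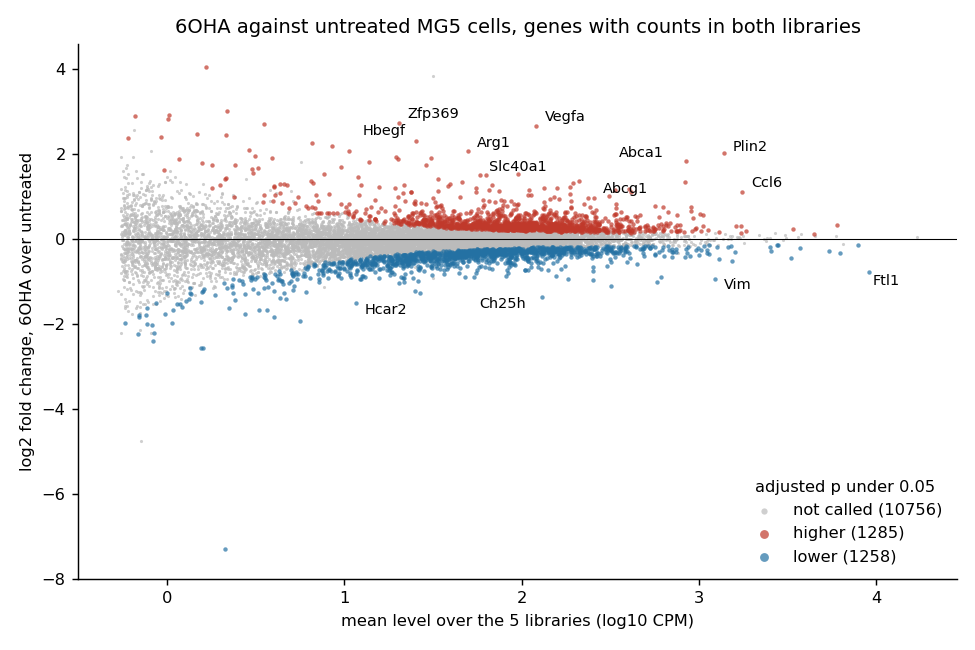
Log2 fold change of 6OHA over untreated (vertical axis) against the mean level over the 5 libraries (horizontal axis, log10 CPM) for genes with at least 1 count in both libraries. Red points were called higher and blue points lower; Plin2, Vegfa and Abca1 combine a high level with a log2 fold change of 2.04, 2.67 and 1.83, while most called genes lie close to the zero line.

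The untreated library lay outside the range of the 4 treated libraries in 2318 of the 2555 called genes (90.7%). The 6OHA library lay outside the range of the other 4 in 1870 (73.2%). These genes were called on the difference between the 6OHA and untreated libraries, so such shares are partly set by that choice. The same shares over all tested genes were not counted. Tested directly against BEX, 6OHA was higher in 471 genes (3.54%) and lower in 735 (5.52%), 1206 in all (9.06%). Of the 1291 genes raised over untreated, 236 were also higher than with BEX, 79 were lower than with BEX and 976 were not called in that test. Of the 1264 lowered genes, 379 were also lower than with BEX, 36 were higher and 849 were not called. The untreated library enters only one of these 2 tests, and the 6OHA library enters both.

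Several abundant lipid genes rose. Plin2, whose product coats lipid droplets (chromosome 4, 86626910 to 86670217, GRCm38.p6), stood at 429.5 CPM in the untreated library, 1762 CPM with 6OHA and 1578, 1572 and 1562 CPM with BEX. Every treated library was far above the untreated one, and 6OHA was slightly above all 3 BEX libraries. The log2 fold change was 2.04 ± 0.047 (adjusted p = 6.23e-13), the lowest adjusted p of all genes, and the difference from BEX was 0.17 ± 0.037 (adjusted p = 0.0107). Abca1, which exports cellular cholesterol and is a classic LXR target (chromosome 4, 53030789 to 53159988), stood at 400.2 CPM untreated, 1426 CPM with 6OHA and 799, 815 and 766 CPM with BEX. Here 6OHA stood apart from both other groups. The rise over untreated was 1.83 ± 0.053 (adjusted p = 6.62e-12) and that over BEX 0.85 ± 0.043 (adjusted p = 8.69e-09). Abcg1, a second cholesterol exporter and LXR target (chromosome 17, 31057694 to 31117984), had 224 CPM untreated, 443 CPM with 6OHA and 203, 199 and 210.4 CPM with BEX. It rose with 6OHA by 0.98 ± 0.058 (adjusted p = 2.41e-08), and the 3 BEX libraries lay below the untreated one.

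The promoter windows of Plin2 and Abca1 are shown because these genes are markers of this comparison and had large rises. Each runs from 250 bases before to 50 bases after a RefSeq start on GRCm38.p6, 5′ to 3′ on the strand of the gene. Capitals mark matches to any of the motifs searched on both strands, here AGGTCA, the element that nuclear receptors bind, and the hypoxia core ACGTG.
Plin2, chr4:86670010-86670309, minus strand: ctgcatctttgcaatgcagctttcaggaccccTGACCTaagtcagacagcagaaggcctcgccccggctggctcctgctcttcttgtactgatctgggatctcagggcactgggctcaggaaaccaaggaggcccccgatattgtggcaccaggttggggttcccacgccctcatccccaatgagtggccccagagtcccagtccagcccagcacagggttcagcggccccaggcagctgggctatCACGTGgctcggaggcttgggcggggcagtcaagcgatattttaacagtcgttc
Abca1, chr4:53159846-53160145, minus strand: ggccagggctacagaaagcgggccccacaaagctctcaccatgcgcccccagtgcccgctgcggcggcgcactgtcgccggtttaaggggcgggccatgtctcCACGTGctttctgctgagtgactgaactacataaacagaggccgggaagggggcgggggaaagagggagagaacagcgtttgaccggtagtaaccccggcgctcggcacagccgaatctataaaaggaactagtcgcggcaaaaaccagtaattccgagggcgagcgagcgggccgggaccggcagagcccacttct
The Plin2 window held 1 AGGTCA on the reverse strand, and both windows held CACGTG, which contains ACGTG on each strand. AGGTCA occurred in 16.3% of all 32851 windows of that length, in 12.9% of those of tested genes, in 12.9% of the windows of genes called higher and in 13.3% of those called lower. ACGTG occurred in 19.6% of all windows, 25.4% of those of tested genes, 27.2% of those of genes called higher and 22.3% of those called lower. Direct repeats of AGGTCA with a gap of 4 bases (DR4) or 1 base (DR1) were found in 0.0152% and 0.0396% of all windows and in 0 windows of called genes. Only exact copies of AGGTCA counted, and the repeats matched in 5 (DR4) and 13 (DR1) windows in all. Repeats with other bases in either copy were not searched, so a count of 0 does not show that a window lacks such an element. These counts describe 300-base windows, and distal elements were not searched.

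Of 18 tested LXR targets and cholesterol export genes, 10 rose and 1 fell, with a median log2 fold change of 0.35 against -0.01 over all tested genes. Beside Abca1 and Abcg1, the desaturase genes Scd2 and Scd1 rose by 0.75 ± 0.051 and 0.70 ± 0.069, and Lpcat3, which puts polyunsaturated chains into phospholipids, by 0.78 ± 0.070. Mertk, a receptor for dying cells, rose by 0.89 ± 0.077 (adjusted p = 1.35e-06). These 6 genes were called under every alternative run. Mylip, a ubiquitin ligase gene and LXR target, went from 28.1 CPM untreated to 42.9 CPM with 6OHA, against 19.6, 21.6 and 21.0 CPM with BEX. As for Abcg1, 6OHA raised Mylip above the untreated level while the BEX libraries lay below it. The call of Mylip over untreated was lost with the larger spread, and that of Abcg1 was kept. The member that fell, 1 of 2 without BEX replicate 3, was Nr1h2, which encodes LXR beta (-0.62 ± 0.090, adjusted p = 0.000202). Srebf1, the lipogenic transcription factor, and Apoe, the lipid carrier, were not called (0.10 ± 0.066, adjusted p = 0.347, and -0.16 ± 0.063, adjusted p = 0.0934). With offsets for GC content and transcript length Srebf1 was called (0.29, adjusted p = 0.00145) and Apoe took the other sign without a call (0.15), while Apoe was called lower without BEX replicate 3 (adjusted p = 0.0414). Against BEX, 10 of the 18 were higher with 6OHA and 1 lower, with a median difference of 0.24.

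Fatty acid synthesis genes rose in 6 of 17 cases and fell in 1, with a median of 0.22. Acaca, which makes malonyl-CoA, increased from 107 to 267 CPM (1.32 ± 0.077, adjusted p = 2.33e-08), with BEX libraries at 206, 211 and 186 CPM. The 6OHA library was the highest of the 5. Fasn, the fatty acid synthase, rose by 0.39 ± 0.060 and Elovl5, an elongase, by 0.44 ± 0.059. In cholesterol synthesis and uptake 13 of 30 genes rose and 2 fell, with a median of 0.22. Lss, the lanosterol synthase gene, rose by 0.66 ± 0.094, and Insig1, a brake on SREBP processing, by 0.44 ± 0.063. Ch25h, which makes 25-hydroxycholesterol, went the other way, from 217 CPM untreated to 84.1 CPM with 6OHA and 114, 116 and 117 CPM with BEX (-1.37 ± 0.063, adjusted p = 1.85e-09). The 6OHA library was the lowest of the 5 for Ch25h. With the larger spread 3 genes of this list were called higher and 1 lower.

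Lipid storage and fatty acid oxidation genes, many of them PPAR targets, changed through a few members. Hilpda, an inhibitor of triglyceride breakdown, stood at 12.4 CPM untreated, 33.1 CPM with 6OHA and 39.6, 42.6 and 41.2 CPM with BEX. It rose by 1.41 ± 0.12 (adjusted p = 8.44e-07), less than with BEX (-0.32 ± 0.079 against BEX, adjusted p = 0.0205). Angptl4, a secreted inhibitor of lipoprotein lipase, rose from 8.16 to 19.0 CPM (1.22 ± 0.16). Cpt1a, which carries fatty acids into mitochondria, rose by 0.95 ± 0.061, its partner Slc25a20 by 0.80 ± 0.098, Acsl3, an acyl-CoA synthetase found on lipid droplets, by 0.81 ± 0.070, the scavenger receptor Cd36 by 0.56 ± 0.056 and Lipa, the lysosomal acid lipase, by 0.58 ± 0.052. Acaa1a, a peroxisomal thiolase, fell by 0.55 ± 0.077. All of these were called under every alternative. In counts, 5 of 16 lipid droplet genes rose and 2 fell, and 6 of 31 uptake and oxidation genes rose and 3 fell. Both medians, -0.01 and 0.02, lay near that of all genes. Among 7 tested retinoid genes 3 rose. Tgm2, a transglutaminase induced by retinoic acid, went from 285 to 728 CPM, below 1020, 1058 and 1072 CPM with BEX (1.35 ± 0.052 over untreated, adjusted p = 2.99e-10). Dhrs3, a retinaldehyde reductase gene, showed the same order of groups (239, 297 and 392.4, 393 and 393 CPM). Rxra and Rxrb, which encode the receptor itself and were looked up outside the naming rule, were slightly lower with 6OHA (-0.19 ± 0.061, adjusted p = 0.0397, and -0.33 ± 0.102, adjusted p = 0.0331). Both values lay near the threshold, and neither call was kept with the larger spread.

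**Figure D2:**
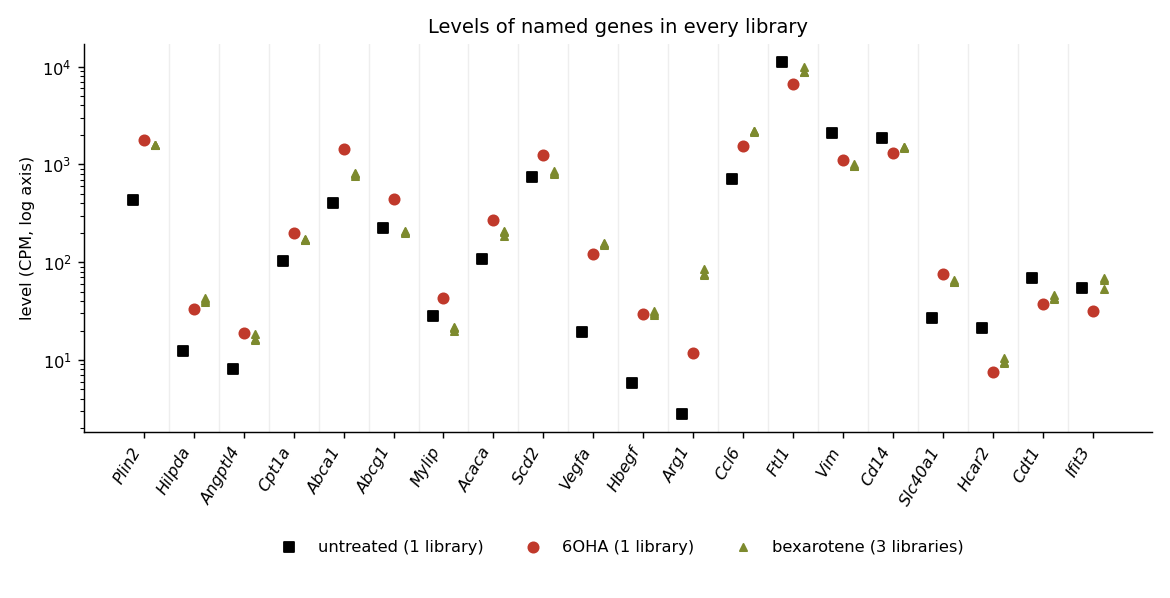
Level of 20 named genes (CPM, log axis) in the untreated library (black square), the 6OHA library (red circle) and each of the 3 BEX libraries (green triangles). Abcg1 and Mylip are raised with 6OHA and not with BEX, Arg1 is far higher with BEX (75.3, 84.4 and 73.5 CPM) than with 6OHA (11.8 CPM), and Ftl1 and Ifit3 are lowest with 6OHA.

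Among secreted growth factors, Vegfa, the main inducer of blood vessel growth (chromosome 17, 46016993 to 46032377), stood at 19.1 CPM untreated, 122 CPM with 6OHA and 151, 156 and 152 CPM with BEX. All treated libraries lay far above the untreated one, with 6OHA the lowest of the treated. Its log2 fold change of 2.67 ± 0.083 (adjusted p = 6.62e-12) was the largest rise among genes above 100 CPM in any library, and it was -0.32 ± 0.052 against BEX (adjusted p = 0.00127). Hbegf, an epidermal growth factor family ligand, rose from 5.88 to 29.3 CPM (2.31 ± 0.16, adjusted p = 4.29e-08), with BEX at 31.8, 28.9 and 30.2 CPM. Areg, another ligand of the same receptor, fell from 7.09 to 2.23 CPM (-1.67 ± 0.34, adjusted p = 0.00171). Tgfb3, a transforming growth factor, rose from 0.451 to 1.94 CPM, a call lost without a filter and with the larger spread, while Tgfb1 fell by 0.39 ± 0.068 (adjusted p = 0.00099) and Inhba, an activin subunit, rose by 0.55 ± 0.062. Growth factor ligands as a list held 3 rises and 3 falls among 17 genes, with a median of -0.05.

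The hypoxia and glycolysis list around Vegfa held 6 rises and 4 falls among 41 genes (median 0.09). These made up 14.6% and 9.76%, against 9.7% and 9.49% of all tested genes. With offsets for GC content and transcript length the list held 9 rises and 1 fall. Its falls numbered 2 without BEX replicate 1. Hif1a, the oxygen-regulated transcription factor, rose by 0.53 ± 0.059 (adjusted p = 1.85e-05). The glycolytic genes Eno1 and Ldha were not called (0.01 ± 0.046 and 0.09 ± 0.051), but with the offsets both were called higher (0.23, adjusted p = 0.000704, and 0.17, adjusted p = 0.0148). Ndrg1, a hypoxia-induced gene, fell by 0.87 ± 0.23, a call lost on both TPM scales, without a filter and with the larger spread. The first Vegfa window of the RefSeq table, shown because Vegfa had this largest rise, contained no ACGTG and 1 interferon motif (GAAA, any 2 bases, GAAA) on the reverse strand, in capitals. A second annotated start had 1 ACGTG.
Vegfa, chr17:46032328-46032627, minus strand: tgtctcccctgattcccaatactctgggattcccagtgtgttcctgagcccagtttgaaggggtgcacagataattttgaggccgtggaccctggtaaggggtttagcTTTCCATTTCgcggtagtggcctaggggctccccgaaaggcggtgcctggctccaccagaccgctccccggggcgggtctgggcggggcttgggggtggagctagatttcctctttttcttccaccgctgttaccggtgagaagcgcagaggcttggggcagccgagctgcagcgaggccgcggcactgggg
Idh1, a cytosolic source of NADPH, rose in the TCA and pentose phosphate list from 138 to 272 CPM (0.97 ± 0.059); that list held 5 rises and 4 falls among 36 genes, with 2 falls without BEX replicate 1.

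Iron genes moved in opposite directions. Ftl1, the ferritin light chain and one of the most abundant transcripts, stood at 11230 CPM untreated, 6582 CPM with 6OHA and 8897, 8720 and 9850 CPM with BEX, so that 6OHA was the lowest of the 5 (-0.77 ± 0.064, adjusted p = 1.14e-06; -0.48 ± 0.052 against BEX, adjusted p = 6.49e-05). It lost more CPM than any other gene. Fth1, the ferritin heavy chain, fell by 0.28 ± 0.054, a call lost on both TPM scales and with the larger spread. Slc40a1, the iron exporter ferroportin, rose from 26.6 to 75.7 CPM (1.51 ± 0.086, adjusted p = 1.41e-08), with BEX at 63.0, 65.1 and 62.2 CPM. Tfrc, the transferrin receptor for iron uptake, rose by 0.45 ± 0.059. Of 31 antioxidant and iron genes 6 rose and 7 fell (median -0.09). None of the 14 tested metallothionein and zinc genes fell and 4 rose, including the zinc transporters Slc30a5 (0.29 ± 0.067) and Slc39a1 (0.22 ± 0.061), and with the larger spread 0 of the 4 were called.

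Chemokine genes rose in 9 of 26 cases and fell in 3 (median 0.07). Ccl6 increased from 702 CPM untreated to 1528 CPM with 6OHA, below 2197, 2150 and 2181 CPM with BEX (1.12 ± 0.046, adjusted p = 5.56e-10). Cxcl2, a neutrophil attractant, showed the same order at 40.7, 83.7 and 144, 151 and 147 CPM (1.04 ± 0.075). Ccl2, Ccl7 and Ccl9, attractants of monocytes and other leukocytes, rose by 0.60 ± 0.048, 0.53 ± 0.061 and 0.57 ± 0.050, and C5ar1, the receptor of complement C5a, by 0.76 ± 0.051. All 6 were called in every alternative. Against BEX, 8 of the 26 chemokine genes were lower with 6OHA and 1 higher. Among inflammatory cytokines and receptors 7 of 34 rose and 9 fell (median -0.12). Il1a rose from 22.7 to 57.7 CPM (1.35 ± 0.095, adjusted p = 1.23e-07); Gm14023 overlaps it on the opposite strand. Its antagonist Il1rn fell by 0.43 ± 0.050, and Il17ra, an interleukin-17 receptor chain, fell by 0.90 ± 0.092. Subunit genes of the GM-CSF receptor went apart, with Csf2rb at 0.35 (adjusted p = 0.000226) and Csf2ra at -0.49 ± 0.063. The Csf2rb call was lost with the larger spread. The related receptor chain gene Csf2rb2 rose by 0.58 ± 0.054.

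Pattern receptors and NF-kB regulators divided, with 8 of 46 higher and 12 lower (median -0.03), or 5 and 4 on log2(TPM + 1) and 1 and 2 with the larger spread. Cd14, the lipopolysaccharide co-receptor, fell from 1882 to 1317 CPM, with BEX at 1466, 1494 and 1521 CPM (-0.52 ± 0.047, adjusted p = 2.61e-06). Tlr2, a receptor for bacterial lipopeptides, fell by 0.64 ± 0.073 (adjusted p = 2.21e-05). Tlr4 rose by 0.36 ± 0.053 and Irak2, an adaptor kinase downstream of it, by 0.73 ± 0.067, both less than with BEX (-0.44 ± 0.043 and -0.48 ± 0.052 against BEX). Tlr8 rose by 0.36 ± 0.070 and Rel, an NF-kB subunit, by 0.46 ± 0.085.

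In the alternative activation list 6 of 15 genes rose and 2 fell (median 0.16). Arg1, the arginase of alternatively activated macrophages (chromosome 10, 24915207 to 24927470), stood at 2.79 CPM untreated, 11.8 CPM with 6OHA and 75.3, 84.4 and 73.5 CPM with BEX. 6OHA lay above the untreated library and far below every BEX library (2.08 ± 0.24 over untreated, adjusted p = 1.01e-05; -2.72 ± 0.12 against BEX, adjusted p = 7.63e-10). Clec10a and Mgl2, which encode macrophage lectins, rose by 1.71 ± 0.25 and 0.67 ± 0.074, each less than with BEX (-0.65 ± 0.14 and -0.23 ± 0.057). Socs3, a suppressor of cytokine signalling, fell by 0.57 ± 0.090, and the transcription factor Klf4 by 0.92 ± 0.13.

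Phagocytic, scavenger and efferocytosis receptors rose in 13 of 40 cases and fell in 9 (median 0.04). Cd300a, an inhibitory receptor for lipids of dying cells, went from 74.1 to 170.1 CPM, with BEX at 144, 138 and 143 CPM (1.20 ± 0.065, adjusted p = 1.16e-08). Treml2 rose from 24.8 to 54.0 CPM (1.12 ± 0.089), and Cd93 and Scarb2 by 0.70 ± 0.065 and 0.61 ± 0.065. Fcgr2b, the inhibitory Fc receptor, fell from 1656 to 1203 CPM (-0.46 ± 0.050, adjusted p = 1.4e-05). In the amyloid and Alzheimer risk list 6 of 31 genes rose and 7 fell. Pilra, an inhibitory receptor gene, rose by 1.12 ± 0.057, Adam10, a secretase that cleaves the amyloid precursor within the amyloid sequence, by 0.60 ± 0.056, and Picalm, an endocytic adaptor, by 0.53 ± 0.055. Cd33, an inhibitory sialic acid receptor, fell by 0.56 ± 0.069. Reads of Pilra may include those of Zcwpw1, which overlaps it on the opposite strand, because the sources used here do not say whether counting used strand. The same holds for Acaca and Tada2a, Lpcat3 and Emg1, Ccl6 and E230016K23Rik, Uqcrq and Gdf9, and Tbxas1 and Hipk2.

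Of 25 homeostatic microglia genes 4 rose and 9 fell (median -0.03), and 5 rose and 5 fell once offsets for GC content and length were added. Selplg fell by 0.43 ± 0.060, while Csf1r, the survival receptor of microglia, and Itgam were not called (-0.02 ± 0.046 and 0.06 ± 0.046). Disease-associated microglia genes rose in 4 of 34 cases and fell in 12 (median -0.12; 5 and 10 with the offsets, 3 and 4 on both TPM scales, 2 and 2 with the larger spread). Capg fell by 0.43 ± 0.050 and Axl, a receptor for dying cells, rose by 0.47 ± 0.053. Spp1 stood at 7320 CPM untreated and 5866 CPM with 6OHA (-0.32 ± 0.061, adjusted p = 0.0021), a call lost with DESeq2, on both TPM scales, without a filter and with the larger spread. Ctsd, the main lysosomal aspartyl protease, rose from 4873 to 6146 CPM (0.34 ± 0.043). The lysosome list as a whole held 5 rises and 5 falls among 50 genes, 10% each, close to 9.7% and 9.49% of all tested genes. Its falls numbered 10 without BEX replicate 2 and 3 without replicate 1.

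Surface receptors and channels changed singly. Hcar2, the receptor for niacin and ketone bodies, fell from 21.2 to 7.45 CPM (-1.51 ± 0.16, adjusted p = 7.88e-06), and BEX stood at 10.5, 9.60 and 9.26 CPM. Gpr35 rose from 5.21 to 19.2 CPM (1.88 ± 0.18), and S1pr1, a sphingosine 1-phosphate receptor, from 123 to 208 CPM (0.76 ± 0.061). The inward rectifier potassium channel gene Kcnj2 fell by 0.82 ± 0.096 and the background potassium channel gene Kcnk6 rose by 0.47 ± 0.064. These 5 were called in every alternative. The receptor list held 7 rises and 9 falls among 39 genes, and the calcium and channel list 7 and 8 among 42. Lipid mediator genes included Tbxas1, the thromboxane synthase (0.87 ± 0.065), and Cysltr1, a leukotriene receptor (0.73 ± 0.073), in a list with 4 rises and 2 falls among 17. St3gal5, which makes the ganglioside GM3, rose by 1.29 ± 0.11 among 40 phospholipid and sphingolipid genes, of which 9 rose and 4 fell.

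Cytoskeletal and matrix genes fell more often than they rose. Vim, the intermediate filament vimentin, stood at 2110 CPM untreated, 1110 CPM with 6OHA and 967, 968 and 999 CPM with BEX, a fall of 0.93 ± 0.048 on the log2 scale with 6OHA (adjusted p = 8.33e-09). Lmna, the nuclear lamin A gene, fell from 284 to 148 CPM (-0.93 ± 0.061), and Coro1a, an actin regulator, by 0.54 ± 0.053. Arhgap18, a GTPase-activating protein gene, rose by 1.20 ± 0.085. The actin and tubulin list held 4 rises and 13 falls among 52 genes, and 7 and 7 with the offsets; without BEX replicate 3 there were 7 rises. Plaur, the urokinase receptor, fell by 0.76 ± 0.065 (adjusted p = 1.36e-06), and the matrix metalloproteinase genes Mmp12 and Mmp13 by 0.44 ± 0.052 and 0.63 ± 0.072. The adhesion and matrix list held 5 rises and 11 falls among 39 genes, and 4 and 10 with the offsets.

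Interferon-stimulated genes were lower in 19 of 45 cases and higher in 1, with a median of -0.28. Ifit3, an antiviral tetratricopeptide gene, stood at 54.9 CPM untreated, 31.6 CPM with 6OHA and 66.1, 53.5 and 69.1 CPM with BEX. The 6OHA library was the lowest of the 5, and the untreated library lay within the BEX range (-0.79 ± 0.14 over untreated, adjusted p = 0.00107; -0.99 ± 0.12 against BEX, adjusted p = 9.86e-05). Oas3, an RNA sensor, fell by 0.35 ± 0.063, and Stat2, a subunit of the interferon-activated transcription factor, by 0.33 ± 0.070. Trim25, a ubiquitin ligase, was the 1 member that rose (0.30 ± 0.057). Against BEX 34 of the 45 were lower with 6OHA and 1 higher, with a median difference of -0.38. These calls depended on the fit: over the alternatives the number of lower genes ran from 0, with the larger spread, to 27, without BEX replicate 3. It was 2 with no filter, 5 on log2(TPM + 1), 11 with DESeq2 and 20 with the offsets. The summed level of the list was 3396 CPM with 6OHA, 3950 CPM untreated and between 3944 and 4494 CPM with BEX.

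The Ifit3 window is shown as an example that holds the interferon motif. Capitals mark 2 interferon motifs on the reverse strand.
Ifit3, chr19:34583279-34583578, plus strand: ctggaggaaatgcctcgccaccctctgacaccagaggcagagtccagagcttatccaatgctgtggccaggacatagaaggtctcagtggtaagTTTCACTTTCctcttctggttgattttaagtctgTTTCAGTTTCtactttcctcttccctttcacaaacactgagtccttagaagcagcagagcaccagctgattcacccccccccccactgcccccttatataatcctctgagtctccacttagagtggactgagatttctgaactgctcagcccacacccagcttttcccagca
This motif occurred in 3.44% of all windows. It was present in 19 of 42 windows of the interferon list (45.2%) and in 10 of the 22 windows of list members called lower (45.5%).

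Antigen presentation genes also fell more often than they rose, 13 of 27 against 1 (median -0.15), and 7 against 1 with the offsets. The peptide transporter genes Tap2 and Tap1 fell by 0.51 ± 0.082 and 0.46 ± 0.083, their partner Tapbp by 0.45 ± 0.067, and the class I gene H2-Q7, a member of a family of near-identical genes that may share reads, by 0.48 ± 0.082. B2m, the common light chain, was not called (0.02 ± 0.045). With the larger spread 0 of these genes were called.

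DNA replication and G1/S genes had the highest share of falls of any list with at least 15 tested genes: 31 of 49 (63.3%), with 3 rises and a median of -0.31. Cdt1, which licenses replication origins, stood at 68.8 CPM untreated, 37.1 CPM with 6OHA and 43.5, 42.4 and 46.6 CPM with BEX (-0.89 ± 0.090, adjusted p = 6.35e-06). The untreated library was the highest and 6OHA the lowest. Ccnd3, a G1 cyclin, fell by 0.80 ± 0.068, Uhrf1, which guides maintenance DNA methylation, by 0.66 ± 0.079, Mcm7, a helicase subunit, by 0.48 ± 0.074, and Pold1, a DNA polymerase catalytic subunit, by 0.66 ± 0.0997. Reads of Bysl may be counted with Ccnd3 and those of Ap4m1 with Mcm7, since they overlap on opposite strands. Cdk4 was not called (-0.17 ± 0.066). With the offsets 32 fell and 2 rose; DESeq2 gave 19 falls, log2(TPM + 1) 12 and the larger spread 4. Against BEX 3 of the 49 were lower and 0 higher. The later phases differed: of 42 G2/M and mitosis genes 3 rose and 3 fell, with a median of -0.02.

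**Figure D3:**
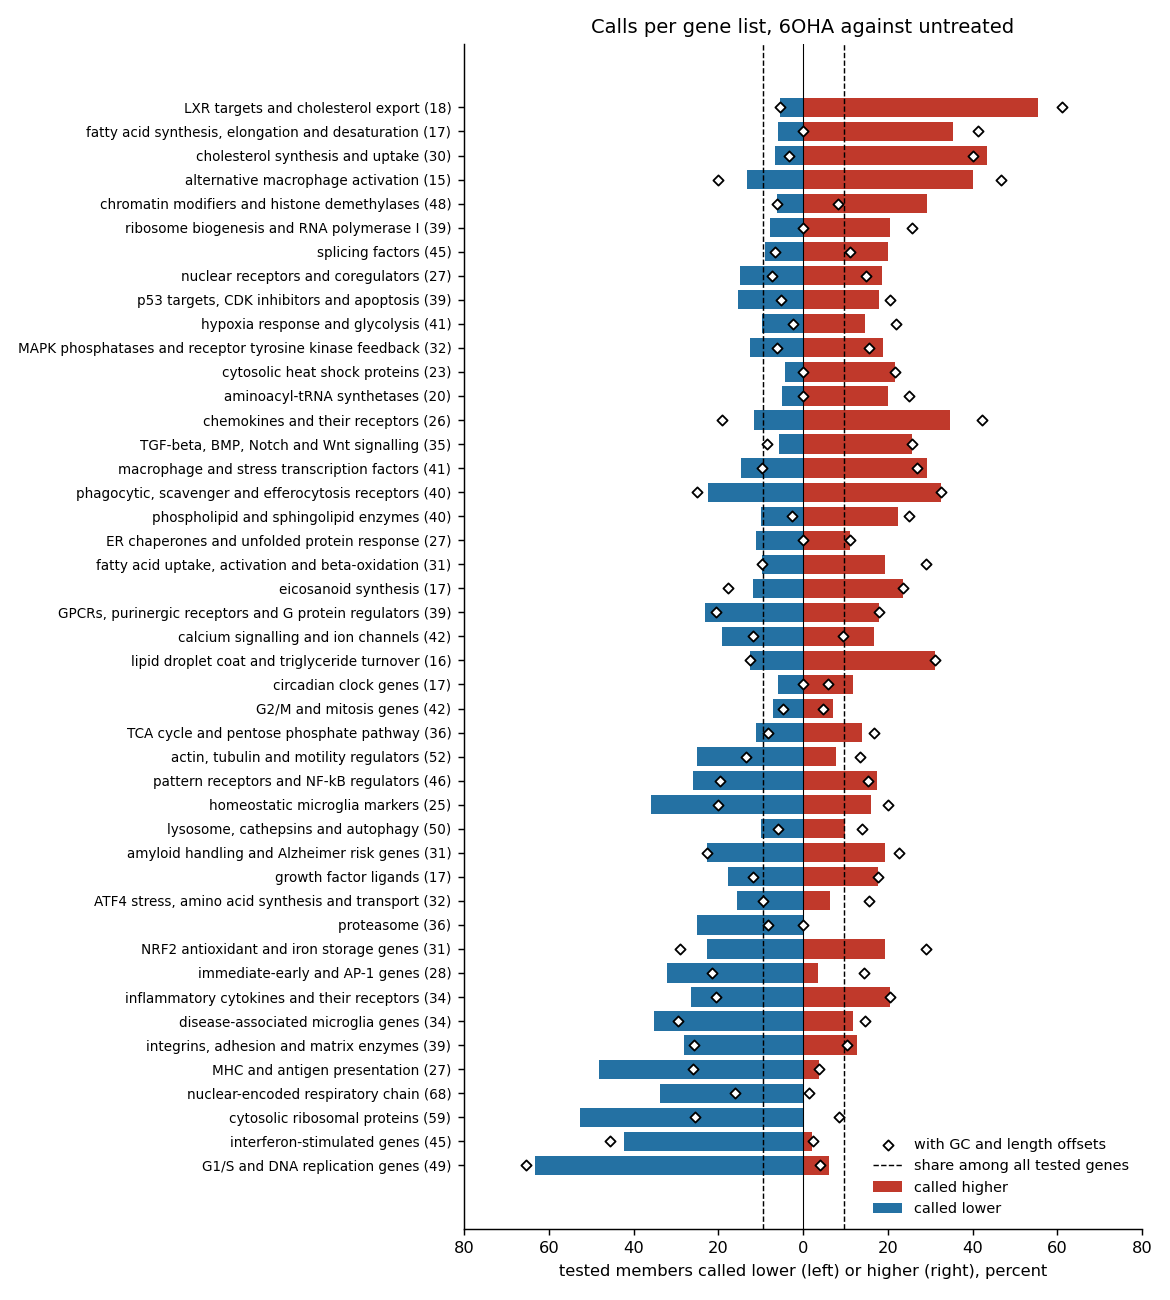
Percent of tested members called lower (blue, left) and higher (red, right) with 6OHA for each list with at least 15 tested genes, sorted by median log2 fold change, with the number tested in parentheses. Dashed lines mark the share among all tested genes (9.49% and 9.7%) and diamonds the shares with GC and length offsets; with the offsets 32 of 49 G1/S genes and 20 of 45 interferon-stimulated genes are lower, while ribosomal, respiratory chain and proteasome genes move toward the dashed lines.

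Ribosomal protein genes fell in 31 of 59 cases and rose in 0 (median -0.19). Rps9 stood at 758 CPM untreated, 411 CPM with 6OHA and 645, 554 and 691 CPM with BEX, a fall of 0.89 ± 0.097 (adjusted p = 1.72e-05). Rplp2, Rpl36 and Rplp1 fell by 0.87 ± 0.076, 0.86 ± 0.072 and 0.64 ± 0.058. Nuclear-encoded respiratory chain genes fell in 23 of 68 cases and rose in 0 (median -0.18), among them Uqcrq of complex III (-0.61 ± 0.079) and Ndufa13 of complex I (-0.56 ± 0.075). Proteasome genes fell in 9 of 36 cases and rose in 0 (median -0.07), among them the immunoproteasome subunit gene Psmb10 (-0.59 ± 0.089). Mitochondrially encoded genes rose in 5 of 13 cases and fell in 0, with ND5 at 0.25 ± 0.053, a call lost with the offsets and the larger spread. These rises numbered 8 without BEX replicate 3 and 0 with the larger spread. On log2(TPM + 1) the falls numbered 16, 12 and 2 in these lists of nuclear genes, and with the larger spread 6, 3 and 1. The Ndufa13 call was lost on both TPM scales, and that of Uqcrq was kept in every alternative. Copies of ribosomal protein genes elsewhere in the genome can share their reads.

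These lists hold short transcripts, and the whole comparison followed transcript length and base composition. Called higher genes had a median GC content of 45.1% and called lower genes 55.1%, against 49.4% over all tested genes. Their median transcript lengths were 5216 and 2600 bases, against 3390. With genes split into 10 equal bins, 261 were higher and 28 lower in the bin of lowest GC content (median 0.15), and 27 were higher and 369 lower in the bin of highest (median -0.28). By length, the shortest bin held 28 higher and 230 lower genes (median -0.16) and the longest 394 and 38 (median 0.18). With offsets for both, 987 genes were higher (8.62%) and 740 lower (6.46%) of 11455 with these annotations, and 1301 of 2464 calls were kept. Ribosomal protein genes then held 5 rises and 15 falls (median -0.02), respiratory chain genes 1 and 11 (median -0.03), and the proteasome median became 0.02 with 0 rises and 3 falls. Against BEX the 6OHA library also followed both. Its medians ran from 0.06 to -0.19 across GC bins and from -0.07 to 0.08 across length bins. With the offsets 691 genes were higher than with BEX and 474 lower. List counts and medians against BEX are given without the offsets. The source of these trends was not tested.

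**Figure D4:**
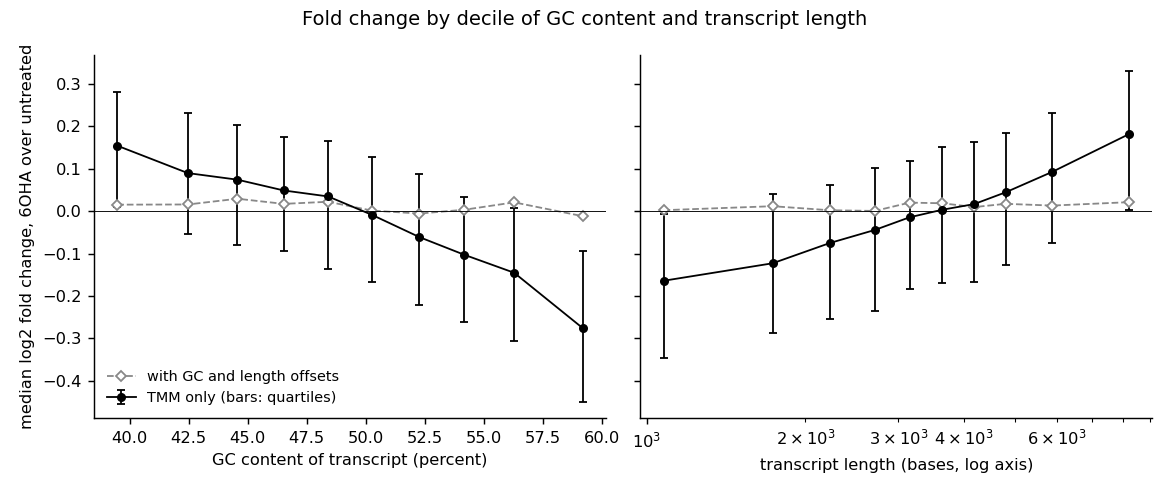
Median log2 fold change of 6OHA over untreated in 10 equal bins of genes by GC content (left) and transcript length (right, log axis), with bars from the lower to the upper quartile. The black line runs from 0.15 to -0.28 across GC content and from -0.16 to 0.18 across length; the grey dashed line with offsets stays near 0.

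A few entries for non-coding RNA were higher in the untreated library, while 0 of 2 genes annotated as rRNA, 0 of 22 snoRNA and 0 of 10 tRNA genes were called. Rn18s-rs5, annotated as an 18S ribosomal RNA related sequence, stood at 998 CPM untreated, 495 CPM with 6OHA and 495, 510 and 377 CPM with BEX (-1.01 ± 0.13, adjusted p = 8.1e-05). Rn7s1 and its near-identical copy Rn7s2, which encode the RNA of the signal recognition particle, had 4.28 CPM untreated, 0.725 CPM with 6OHA and 1.53, 0.524 and 0.693 CPM with BEX each. All 4 treated libraries were below the untreated one. The abundant non-coding RNA genes Malat1 and Xist went the other way. With 6OHA they rose from 176.1 to 393.7 CPM and from 253.7 to 422.2 CPM, and every BEX library also lay above the untreated one. The part of these entries in the other differences was not tested.

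Of 32 ATF4 and amino acid genes 2 rose and 5 fell (median -0.06), or 5 and 3 with the offsets (median 0.06). Slc38a2, an amino acid transporter, rose by 0.36 ± 0.055, and Slc3a2, the heavy chain of several others, fell by 0.39 ± 0.056. Atf4 itself stood at 292 CPM untreated, 289.6 CPM with 6OHA and 390.2, 396 and 409 CPM with BEX. The 3 BEX libraries were higher than both (-0.01 ± 0.056 over untreated, adjusted p = 0.928; -0.46 ± 0.045 against BEX, adjusted p = 2.01e-05). With the offsets the first value became 0.16 and was called (adjusted p = 0.0332). Against BEX, without the offsets, 20 of the 32 were lower and 0 higher, with a median difference of -0.33. Aminoacyl-tRNA synthetase genes rose in 4 of 20 cases and fell in 1 against untreated, and 8 were lower than with BEX. Heat shock genes rose in 5 of 23 cases and fell in 1, with Hsph1 at 0.67 ± 0.078 and Hspa4l at 0.51 ± 0.070; against BEX 2 were higher and 0 lower. Endoplasmic reticulum chaperone genes held 3 rises and 3 falls among 27, 11.1% each, close to 9.7% and 9.49% of all tested genes. Against BEX 1 was higher and 3 were lower. The rises over untreated numbered 6 without BEX replicate 2 and likewise without replicate 3, and 0 with the larger spread.

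**Figure D5:**
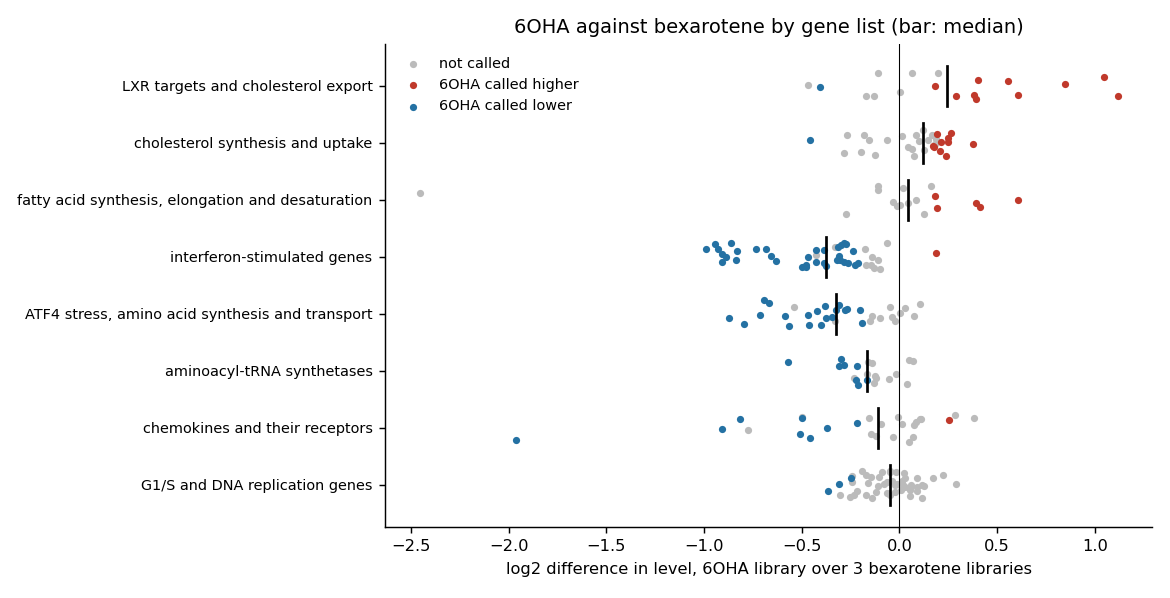
Log2 difference in level between the 6OHA library and the 3 BEX libraries for each tested gene of 8 lists (points), with red and blue points called higher and lower with 6OHA and black bars at the list medians. The median of LXR targets lies to the right of 0 (0.24), and those of interferon-stimulated and ATF4 genes to the left (-0.38 and -0.33).

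Among transcription factor genes 12 of 41 rose and 6 fell (median 0.04). Hivep2 rose from 7.41 to 27.8 CPM (1.91 ± 0.14, adjusted p = 8.75e-08), with BEX at 40.1, 39.3 and 38.8 CPM, and Klf7 by 0.72 ± 0.080. Cebpd, a macrophage differentiation factor, fell from 42.6 to 18.4 CPM (-1.21 ± 0.12); Spidr overlaps it on the opposite strand. Immediate-early genes fell in 9 of 28 cases and rose in 1. Klf4, Ier2 and Jun were among those that fell (-0.92 ± 0.13, -0.83 ± 0.12 and -0.65 ± 0.066), and with the larger spread Jun was called and the other 2 were not. With the offsets 6 fell and 4 rose, and the median changed from -0.10 to 0.06. Klf10, an early target of transforming growth factor, was the 1 that rose (0.52 ± 0.078). Of 17 clock genes 2 rose and 1 fell. Per2, a repressor in the clock, stood at 2.65 CPM untreated, 9.40 CPM with 6OHA and 19.4, 19.2 and 18.4 CPM with BEX (1.83 ± 0.23, adjusted p = 3.31e-05), between the other groups.

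The MAPK feedback genes Dusp6 and Etv5 rose by 0.56 ± 0.061 and 0.61 ± 0.072. Their list held 6 rises and 4 falls among 32 genes (18.8% and 12.5%, against 9.7% and 9.49% of all tested genes). Notch2 rose by 0.49 ± 0.072 among 35 genes of the TGF-beta, Notch and Wnt pathways, of which 9 rose and 2 fell. Polr1a, the catalytic subunit of RNA polymerase I, rose from 57.7 to 102 CPM (0.82 ± 0.083), and its list of ribosome biogenesis genes held 8 rises and 3 falls among 39. Chromatin modifiers rose in 14 of 48 cases and fell in 3, with the DNA methyltransferase gene Dnmt3a at 0.69 ± 0.065, but 4 rose and 3 fell with the offsets. Splicing factors held 9 rises and 4 falls among 45 (5 and 3 with the offsets, and 2 falls without BEX replicate 1), with Ptbp3 at 0.51 ± 0.053. In the p53 and apoptosis list 7 of 39 rose and 6 fell. The inhibitors of cell death Xiap and Bcl2a1b rose by 0.59 ± 0.062 and 0.56 ± 0.067; Bcl2a1b belongs to a family of near-identical copies that may share reads. The coregulator and nuclear receptor list held 5 rises and 4 falls among 27 genes.

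The largest fold changes came from genes with few counts. Bach2, a transcriptional repressor (chromosome 4, 32238413 to 32586109), had 0 counts untreated and 83 with 6OHA, at least 28.5-fold higher against a floor of 3 counts in the untreated library. Tubg2, a gamma-tubulin gene, had 0 and 34 counts, at least 11.7-fold higher. BEX libraries held both (1.33, 2.21 and 2.105 and 0.974, 1.02 and 1.24 CPM), so the untreated library alone stood apart. The Bach2 call was lost on both TPM scales, and Bach2os overlaps it on the opposite strand. Zfp369, a zinc finger gene with more counts, rose from 4.03 to 27.0 CPM (2.75 ± 0.19, adjusted p = 3.36e-08), with BEX at 24.9, 23.3 and 21.9 CPM. Dmpk, the myotonic dystrophy kinase gene, rose from 0.141 to 2.41 CPM, and Rgs9, a regulator of G protein signalling, from 1.58 to 7.60 CPM, the latter not called on either TPM scale. Asb4, a ubiquitin ligase adaptor gene, rose from 1.44 to 6.64 CPM, less than with BEX (10.1, 11.9 and 12.5 CPM), and Ighm, the immunoglobulin mu constant region, from 1.41 to 5.28 CPM. In the other direction Rnf225, Clcn2 and Eva1c had 35, 22 and 19 counts untreated and 0 with 6OHA, at least 11.3-fold, 7.12-fold and 6.15-fold lower. Counts were present in all 3 BEX libraries for each, so here the 6OHA library alone stood apart (adjusted p against BEX = 0.00191, 0.00586 and 0.00452). All 3 calls over untreated were lost on log2(TPM + 1), that of Clcn2 also on log2(TPM + 0.1) and that of Eva1c also without a filter. Tymp, which encodes thymidine phosphorylase, fell from 2.45 to 0.464 CPM, with BEX at 0.325, 0.690 and 0.248 CPM; Sco2 overlaps it on the same strand and Ncaph2 on the other, and the call was lost without a filter, on log2(TPM + 0.1) and with the larger spread. Dtx1, a Notch pathway ubiquitin ligase gene, fell from 5.35 to 1.68 CPM, with the lowest BEX library at 3.48 CPM. H2aw, a histone gene, had 181 counts untreated and 1 with 6OHA, but BEX ran from 0.371 to 4.05 CPM, and the call was lost without a filter, on log2(TPM + 1) and with the larger spread.

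Genes called in both tests show where the 6OHA library departed most from BEX. Beside Arg1, the smaller rises included Pram1 (1.15 CPM untreated, 4.87 CPM with 6OHA, 13.6, 18.1 and 15.4 CPM with BEX), an adaptor of myeloid cells, and St6gal1, a sialyltransferase gene (13.2, 19.8 and 47.4, 44.7 and 42.3 CPM). Col4a2, a basement membrane collagen gene, followed the same order (3.88, 14.9 and 28.3, 25.6 and 24.7 CPM); its neighbour Col4a1 overlaps it. Thbs1, the matrix protein thrombospondin 1, fell with 6OHA and was higher with BEX (16.9, 12.2 and 24.7, 27.7 and 24.5 CPM); its call over untreated was lost with DESeq2, without a filter, on both TPM scales and with the larger spread. Rab11fip2, an endosome recycling gene, was lower with 6OHA than in all other libraries (4.90, 1.89 and 4.78, 5.57 and 4.51 CPM), and its call over untreated was lost on log2(TPM + 1) and with the larger spread. Abcg1, Mylip and Sytl2, a vesicle transport gene, were the named genes with the largest differences in the other direction, at 1.12 ± 0.047, 1.05 ± 0.083 and 1.12 ± 0.32 on the log2 scale.

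By abundance, called higher genes gained 48810 CPM in all and called lower genes lost 43020. The 12 largest gains made up 16.3% of the first sum and included Plin2, Ctsd, Abca1, Ccl6, Scd2, Tgm2 and Sdc3, a heparan sulfate proteoglycan gene (634 to 1002 CPM). The 12 largest losses made up 30.4% of the second and included Ftl1, Spp1, Mmp12, Vim, Cd14 and Fcgr2b. Protein-coding genes held 1253 of the higher and 1207 of the lower calls. Among 829 lncRNA genes 26 were higher and 21 lower, and among 809 pseudogenes 9 were higher and 26 lower.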

How the data were processed

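The deposited table for mm10 held whole-number read counts, FPKM and TPM for 45777 genes in 5 poly-A libraries prepared with a stranded mRNA kit, per the labels' protocols. Counts were tested, the deposited TPM entered 2 alternatives, and the deposited FPKM were not used. Per the submitters' processing notes, HISAT2 2.1.0, StringTie 2.1.3b, Bowtie2, SAMtools 1.9, bcl2fastq 2.20.0 and Trimmomatic 0.38 were used; their roles and any use of strand in counting are not given in the sources used here.

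All 5 libraries entered 1 quasi-likelihood fit (edgeR 4.0.16, R 4.3.3) with 3 groups, TMM factors of 0.993 to 1.00 and a mean count of at least 20. Spread came from the 3 BEX libraries (2 residual and 13 prior degrees of freedom, common dispersion 0.000953, median SE 0.113), and the lone libraries were assumed to vary like them. The BEX libraries differed beyond counting noise. Contrasts were 6OHA vs untreated and 6OHA vs BEX, two-sided, with Benjamini-Hochberg adjustment. Floors for counts of 0 were 3 counts per library (0.0743 to 0.0885 CPM) and cover counting error only. In simulated data over 13316 genes for 6OHA vs untreated, 67.2%, 74.6% and 98.5% of genes with true folds of 1.5, 2 and 4 were called. There were 11 false calls among 13116 unchanged genes. All simulated libraries had the spread fitted from the BEX libraries and no trend with GC content or length. The rate of false calls in the real lone libraries therefore cannot be read from this count.

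The 52 lists (1672 genes, 1506 tested) came from general knowledge and were given no set test. The comparison, members and lists were chosen with earlier results of these data known. Named genes were the 25 largest rises and falls, the 12 largest gains and losses in CPM, the 4 markers, up to 6 called and 2 uncalled members per list, and the 20 largest differences among genes called in both contrasts; only part of them is described. Alternative settings were DESeq2 1.42.0, limma-voom (limma 3.58.1), RLE factors, the older quasi-likelihood method, 3 other count filters, log2(TPM + 1), log2(TPM + 0.1), dispersion times 4, leaving out each BEX library, and GC and length offsets from GENCODE M21 transcripts (86% of tested genes). The setting with dispersion times 4 used a likelihood ratio test in place of the quasi-likelihood test. After seeing the data, a fit of only genes with counts in every library was added. Promoter windows and positions are from RefSeq GRCm38.p6.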

Additional observations from a re-analysis of the deposited data

How the results depend on the processing

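The lone 6OHA and untreated libraries, a comparison resting on 1 library a side, and a trend with GC content and length limit every result above. RLE factors, limma-voom, the older quasi-likelihood method, filterByExpr, a mean of at least 100 counts and genes above 0 in every library gave counts of calls within 1.5 times those reported for both contrasts, in each direction. Without 1 BEX library, 6OHA vs untreated had 1239 to 1571 higher and 1153 to 1494 lower genes, and 6OHA vs BEX 343 to 518 higher and 666 to 880 lower. No paired analysis was possible because the 6OHA library carries replicate number 2 and the untreated library number 3, so that the 2 share no number.

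Against untreated, the calls were 659 higher and 475 lower (1134 in all) without a filter over 21819 genes, 779 and 492 (1271) on log2(TPM + 1), 845 and 538 (1383) on log2(TPM + 0.1) and 222 and 84 (306) with the dispersion times 4. DESeq2, which left 9443 genes with an adjusted p, gave 775 lower, and the GC and length offsets 740 lower over 11455 genes. Against BEX, in the same order, they were 57 and 133 (190), 115 and 305 (420), 135 and 364 (499), and 23 and 66 (89), with 474 lower under the offsets. Called changes of at least 2-fold numbered 171, and 59 with DESeq2, 107 without a filter, 106 at a mean of at least 100 counts, 95 on log2(TPM + 1) and 74 with the dispersion times 4. Against BEX they numbered 12, 20, 36, 26 and 21 in that order. Fewer genes were tested with DESeq2, the higher minimum and the offsets, and otherwise the cause was not tested.

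The offsets turned the direction of 11 named genes that were called in at least 1 of the 2 fits. Log2 fold changes became 0.16 for Atf4, 0.0932 for Atf5, 0.0436 for C1qa, 0.0750 for Cebpb, -0.0244 for Chordc1, 0.15 for Clic1, -0.15 for Colec12, 0.10 for Cox6a1, 0.0398 for Grn, 0.0249 for Psmb5 and 0.21 for Slc39a7.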
